A study of Mus musculus with 36 samples.

Results

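The 38 Hox genes described here belong to the 4 homeobox clusters of the mouse genome, and were chosen by name among the 55401 genes of the count files. HoxA holds 10 of them on chromosome 6 (chr6:52162417-52260880, GRCm38), HoxB 10 on chromosome 11 (chr11:96194316-96368256), HoxC 9 on chromosome 15 (chr15:102921103-103036852) and HoxD 9 on chromosome 2 (chr2:74668310-74765142). The study removed accessory subunits of Polycomb repressive complexes from mouse embryonic stem cells (ESCs) and compared RNA from ESCs with RNA from epiblast-like cells (EpiLCs), the formative state that ESCs reach in culture. It holds 36 RNA-seq libraries in 12 groups of 3.

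All cells were of strain C57BL/6. J2WT is wild type and J2KO lacks functional JARID2, the subunit of the PRC2.2 form of Polycomb repressive complex 2. PclWT is the wild type of a separate set, in which TKO lacks MTF2, PHF1 and PHF19, the Polycomb-like subunits of the PRC2.1 form, and QKO lacks these and JARID2. These 5 lines were sampled as ESCs and as EpiLCs. Pcgf2/4 KO lacks PCGF2 and PCGF4 of canonical PRC1, and it was sampled with a WT line as EpiLCs only. ESCs were kept with serum, leukaemia inhibitory factor, 3 µM of a GSK inhibitor and 1 µM of a MEK inhibitor, and EpiLCs were made over 2 days with 20 ng/ml activin A and 12 ng/ml bFGF. How many clones stand behind each line, and whether a group's libraries are separate cultures, is not given in the sources used here, so the p-values measure the spread between libraries, which may be technical.

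Hox genes encode homeodomain transcription factors that tell cells of the embryo where they lie along the head-to-tail axis. Within a cluster, genes of low paralog number are switched on early and act in the head and neck, and genes of high number follow later and act in the trunk, limbs and tail. In pluripotent cells the clusters are classical Polycomb targets: PRC2 methylates histone H3 over them, canonical PRC1 binds that mark, and the genes are held nearly silent. Hox proteins bind DNA together with cofactors of the PBX and MEIS families.

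Depth ran from 6784578 to 18026492 counts in genes per library, with a median of 10472704, and the J2 libraries were deeper than those of the Pcl set. Levels are given as CPM (read counts per library size, with TMM factors), or as RPKM over exon bases that no other gene shares where genes are compared with each other. Of the 38 genes, 6 had a count in all 36 libraries (Hoxa3, Hoxa7, Hoxb4, Hoxb9, Hoxc13 and Hoxd13), and 7 stood at 0 in more than 18 libraries (Hoxa6, Hoxb3, Hoxb5, Hoxb6, Hoxd3, Hoxd10 and Hoxd12). A gene entered the edgeR quasi-likelihood test when its mean normalized count over the compared libraries reached 15. A Hox gene silent in 1 group passes that filter mainly through the group where it is high, so the share of tested members that were called is a description and carries no weight as evidence. A call needed a Benjamini-Hochberg adjusted p under 0.05 over all tested genes and an absolute log2 fold change over 1.

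2 libraries stood apart before any comparison. In PclWT EpiLC replicate 1, 28.81% of reads fell in no single gene, against 23.73% and 24.01% in its group, and its summed Hox level was 26.9 CPM against 17.5 and 17.2. QKO EpiLC replicate 2 had 30.24% of such reads against 23.22% and 23.57%. The targeted genes Mtf2 and Phf1 fell in TKO and QKO at both stages: Mtf2 stood at 419 CPM in PclWT ESCs, 43.9 in TKO and 37.9 in QKO, and Phf1 at 8.06, 0.595 and 0.59. Phf19 stood at 1.67, 1.25 and 0.48 CPM in these ESCs, where it was not tested. In EpiLCs it stood at 3.04 CPM in PclWT, 2.43 in TKO (log2 fold change -0.35, adjusted p 0.241) and 0.99 in QKO (-1.68, adjusted p 0.00666). Whole-gene counts of Jarid2 (411 CPM in J2KO and 457 in J2WT ESCs), Pcgf2 (64.6 in the knockout, 59.0 in WT) and Bmi1, the gene of PCGF4 (23.0 and 21.9), do not show whether a deleted part is present and check nothing.

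Summed over the 38 genes, wild-type EpiLCs held little Hox RNA: 9.35 ± 0.292 CPM in J2WT, 10.4 ± 0.631 in WT and 20.5 ± 5.52 in PclWT (SD, n = 3). TKO EpiLCs reached 106 ± 0.972 CPM and QKO EpiLCs 164 ± 0.23. The ESCs lay between 30.4 ± 2.14 CPM in PclWT and 108 ± 4.34 in QKO. Per length, 17 of the 38 genes had their highest mean level in QKO EpiLCs, 8 in TKO EpiLCs, 8 in QKO ESCs and 3 in J2KO ESCs. Hoxd3 was highest in PclWT ESCs, with 1 count, and Hoxb13 in PclWT EpiLCs.

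The highest group means were 13.4 RPKM for Hoxc12 in QKO ESCs, 13.3 for Hoxa5 in QKO EpiLCs and 10.7 for Hoxc13 in QKO ESCs. In QKO EpiLCs 8 Hox genes exceeded the median protein-coding gene with counts (3.05 RPKM), and 77.4% of these protein-coding genes lay below Hoxa5. In TKO EpiLCs 4 did so, and in the EpiLCs of J2WT, PclWT and WT none (0). The wild-type ESCs were not empty either: Hoxc12 at 5.97 RPKM and Hoxc13 at 5.75 exceeded the median of 3.03 in J2WT.

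**Figure D1:**
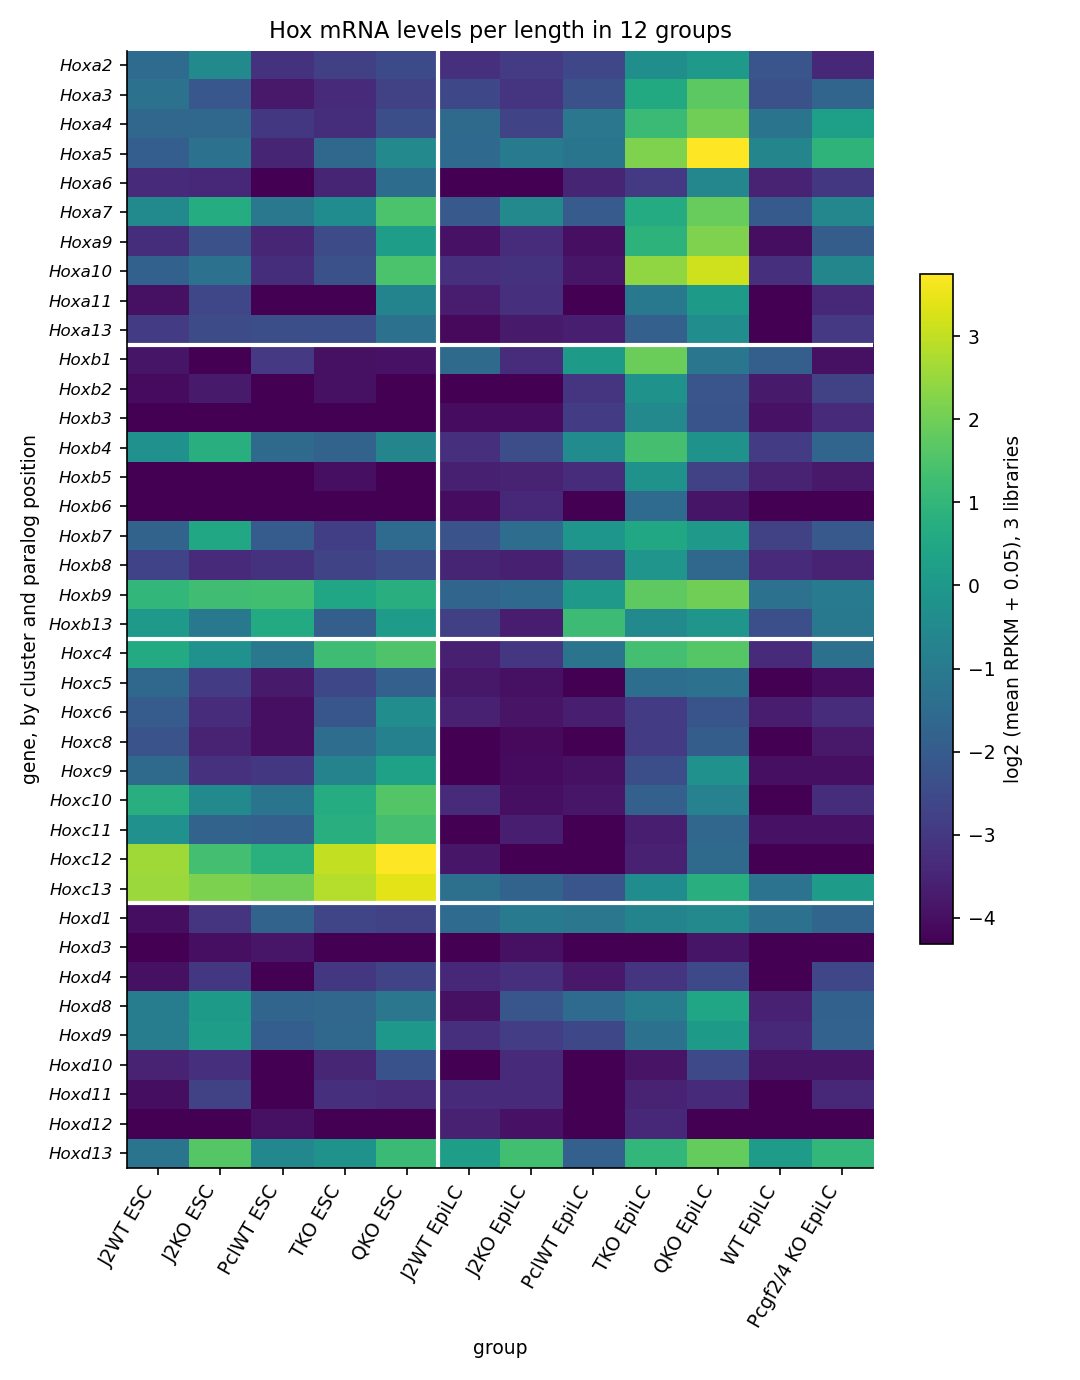
Mean level of each of the 38 Hox genes (rows, by cluster and paralog number) in the 12 groups (columns, ESC groups left of the white line and EpiLC groups right), as log2 of the mean RPKM of 3 libraries plus 0.05. Hoxc12 and Hoxc13 were the most abundant in QKO ESCs (13.4 and 10.7 RPKM), and Hoxa5 and Hoxa10 in QKO EpiLCs (13.3 and 9.0 RPKM).

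The change of state in wild-type cells was first read in J2WT. Hoxc12, at the 5-prime end of HoxC, stood at 6.35, 6.51 and 5.61 CPM in the 3 ESC libraries and at 0.0609, 0 and 0 in EpiLCs. Hoxc13, which acts in hair and nail formation, stood at 15.4, 12.7 and 14.3 CPM and fell to 1.1, 0.675 and 0.766. The groups did not overlap for either gene. Hoxc12 had 292 counts in ESCs and 1 in EpiLCs, an EpiLC to ESC ratio of 0.00336 with a counting interval of 8.48e-05 to 0.0189 (95%, counting error only). Hoxc13 changed by -4.03 (log2 fold change, SE 0.16, adjusted p 1.65e-16).

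The whole HoxC cluster moved the same way. All 9 of its genes had lower EpiLC than ESC means with no overlap between libraries, where 23.8% of all genes with a count did, and the cluster sum went from 31.1 ± 2.41 to 1.18 ± 0.253 CPM. Hoxc4, the gene of lowest number in HoxC, changed by -5.39 (SE 0.4, adjusted p 1.18e-11) and Hoxc10, which acts in the lumbar trunk and hindlimb, by -4.98 (SE 0.41, adjusted p 8.11e-11). Hoxc11 had 76 counts in ESCs and 0 in EpiLCs, which makes it at least 25.8-fold lower if 3 counts are allowed for the empty group. Hoxc9 was at least 11.6-fold and Hoxc8 at least 7.14-fold lower on the same allowance.

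Outside HoxC, Hoxb4 (log2 fold change -3.75, SE 0.37), Hoxb13 (-3.31, SE 0.38), Hoxb9 (-2.90, SE 0.21), Hoxa7 (-1.81, SE 0.33) and Hoxa3 (-1.56, SE 0.31) fell. Hoxd13, which shapes digits and the urogenital tract, went the other way. Its libraries stood at 0.872, 0.967 and 1.01 CPM in ESCs and at 2.07, 3.31 and 2.55 in EpiLCs, a log2 fold change of 1.49 (SE 0.24, adjusted p 5.46e-06) with no overlap. In all, 9 Hox genes were called lower and 1 higher of the 10 tested, where 30.2% of all tested genes were called (15.4% higher, 14.8% lower). Over all 38 genes without the filter, 25 means were lower and 12 higher, where 51.8% of all genes were higher. EpiLC libraries lay entirely above for 5 genes and below for 21, against 25.3% and 23.8% of all genes. The median change was -1.97, and -0.01 for all genes. Without J2WT ESC replicate 3 the calls fell to 6.

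Genes of paralog positions 1 to 4 went both ways in J2WT. Of these 11 genes 5 EpiLC means were higher and 5 lower, with libraries entirely above for 2 and below for 4, and the unfiltered median was -0.71. Of all genes with a count, 51.8% of means were higher, and libraries lay entirely above for 25.3% and below for 23.8%. The 3 tested, Hoxa3, Hoxb4 and Hoxc4, were called lower, and Hoxa2 had 4 counts in EpiLCs and 22 in ESCs (ratio 0.178, interval 0.0447 to 0.525). The 2 that lay above were Hoxb1 and Hoxd1. Hoxb1, an early gene of the hindbrain, had 33 counts in EpiLCs and 2 in ESCs (ratio 16.2, counting interval 4.14 to 139), and Hoxd1 had 27 and 1 (26.5, interval 4.36 to 1084). Neither reached the mean of 15 counts, and libraries did not overlap for either. The EpiLC levels of Hoxb1 were 0.609, 0.552 and 0.894 CPM.

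**Figure D2:**
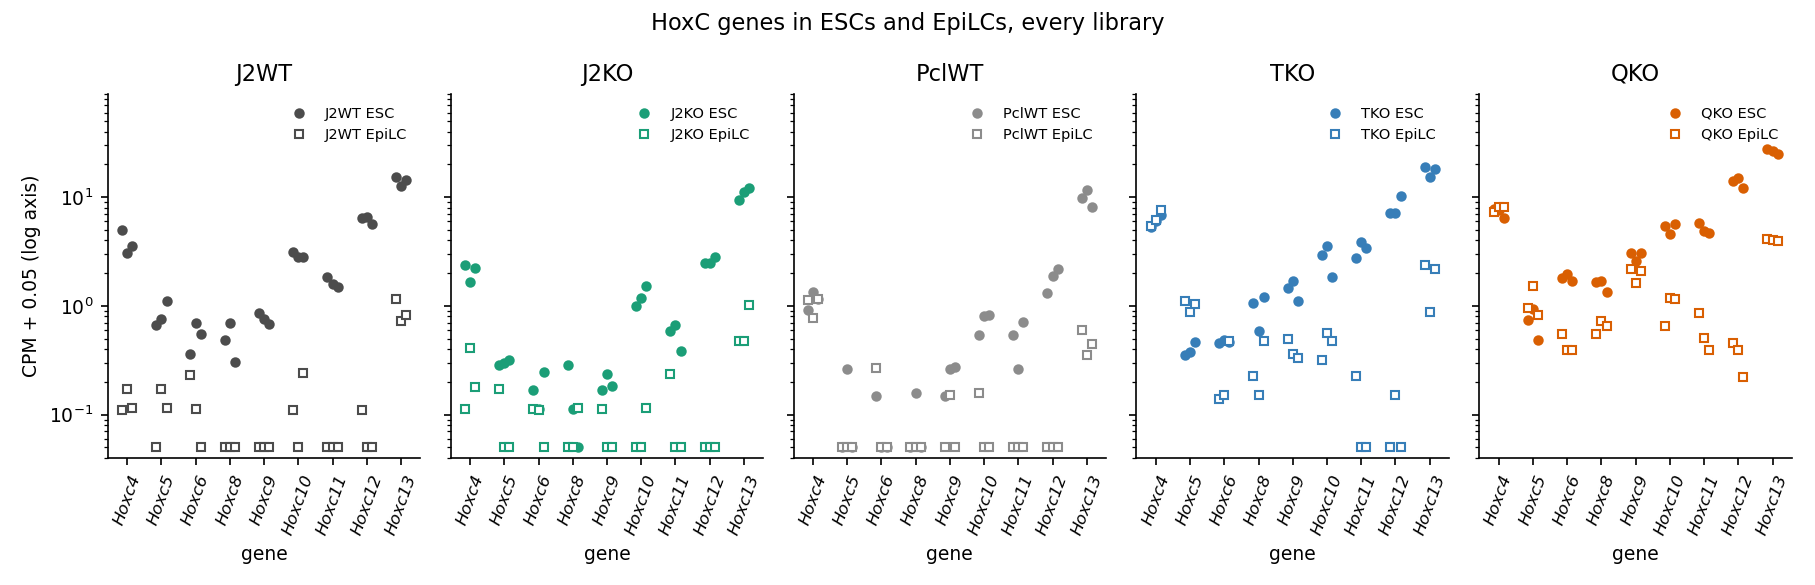
Level of each of the 9 HoxC genes in every library of J2WT, J2KO, PclWT, TKO and QKO (CPM plus 0.05, log axis), with filled circles for ESCs and open squares for EpiLCs. Hoxc12 went from 6.35, 6.51 and 5.61 CPM in J2WT ESCs to 0.0609, 0 and 0 in EpiLCs, while Hoxc4 in TKO stayed between 5.24 and 7.52 CPM at both stages.

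PclWT, the other wild type, had lower HoxC levels in ESCs, and the same end of the cluster emptied. Hoxc13 went from 9.7, 11.7 and 8.13 CPM to 0.547, 0.307 and 0.4 (log2 fold change -4.51, SE 0.28, adjusted p 9e-05), with no overlap. Hoxc12 had 49 counts in ESCs and 0 in EpiLCs, at least 16.5-fold lower, and Hoxc11 was at least 4.37-fold lower. Hoxc4 did not follow: 31 counts in ESCs and 28 in EpiLCs gave a ratio of 0.895 (interval 0.517 to 1.54), with overlapping libraries.

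Elsewhere in PclWT, Hoxb9 fell from 6.79, 6.1 and 5.79 CPM to 2.63, 2.15 and 2.8 (log2 fold change -1.28, SE 0.18, adjusted p 0.0022). Hoxb13 stood at 3.59, 3.53 and 2.67 CPM in ESCs and at 7.33, 3.99 and 3.6 in EpiLCs; the fit gave 0.61 with adjusted p 0.198. Hoxb1 had 5 counts in ESCs and 67 in EpiLCs (ratio 13.3, interval 5.42 to 42.2) and was not tested. In HoxA, Hoxa3 went from 3 counts to 19 (ratio 6.28, interval 1.85 to 33.1) and Hoxa4 from 3 to 16 (5.29, 1.51 to 28.3). Hoxa5 went from 2 to 21 (10.4, 2.54 to 91.5). Libraries did not overlap for these HoxA genes, and none was tested. Of the 10 HoxA genes 5 means were higher and 4 lower, with libraries apart upward for 3 and downward for 1. In total 2 of 3 tested Hox genes were called, both lower, where 15.4% of all tested genes were (9.21% higher, 6.21% lower). Over the 38 genes 17 means were higher and 17 lower, where 50.6% of all genes were higher, and libraries lay apart upward for 9 and downward for 7, against 15% and 14.7%. The median was 0.02, and -0.03 for all genes. The pooled split joined opposite shifts by paralog position. At positions 1 to 4, 9 of 11 means were higher and 2 lower, with 6 genes apart upward and 0 downward (median 1.86). At positions 5 to 8, 7 of 11 were higher and 3 lower, with 2 and 1 apart (median 0.6). At positions 9 to 13, 1 of 16 was higher and 12 lower, with 1 and 6 apart (median -1.89).

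The difference between the wild types in this change was itself tested. Relative to J2WT, the change from ESC to EpiLC in PclWT was higher by 5.22 on the log2 scale for Hoxc4 (SE 0.57, adjusted p 2.46e-05), by 3.91 for Hoxb13 (SE 0.6) and by 1.62 for Hoxb9 (SE 0.26). For Hoxd13 it differed by -2.95 (SE 0.41, adjusted p 0.000144), since its level in PclWT went from 1.65, 1.82 and 1.22 CPM to 0.766, 0.512 and 0.4. These 4 genes were called of 6 tested, where 21.4% of all tested genes were called (11.3% up, 10.1% down). Line, set and sequencing depth cannot be told apart in this contrast. Markers of the formative state also separated the sets. Their summed level was 1400 CPM in PclWT EpiLCs (range 1382 to 1435), 4524 in J2WT (4475 to 4570) and 4718 in WT (4700 to 4732). Most of each sum came from Dnmt3a, Dnmt3b and Pou5f1. Fgf5 stood at 0.896 CPM in PclWT, 58.3 in J2WT and 44.0 in WT, and Otx2 at 3.39, 117 and 159. The part of these markers in the Hox differences was not tested.

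In J2KO, genes of all 4 clusters fell from ESC to EpiLC. Hoxc12 went from 122 counts to 0, at least 40.8-fold lower, and Hoxc13 from 9.44, 11.2 and 12.1 CPM to 0.43, 0.425 and 0.97 (log2 fold change -4.14, SE 0.2). Hoxd9 fell by 3.54 on the log2 scale (SE 0.35), Hoxd8 by 2.50 (SE 0.27), Hoxb4 by 3.56, Hoxc4 by 3.37, Hoxb9 by 3.00 and Hoxb7 by 2.07. All 9 genes called of 10 tested were lower, where 27.2% of all tested genes were called (15.2% higher, 12.0% lower). Of all 38, 30 means were lower and 8 higher, where 53.2% of all genes were higher. Libraries lay apart upward for 1 gene and downward for 21, against 26.0% and 23.3%, and the median was -1.72. Hoxd13 stayed high at both stages, at 7.24, 7.5 and 7.63 CPM and then 4.97, 6.56 and 6.47 (log2 fold change -0.29).

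In ESCs, HoxD genes were higher and HoxC genes lower in J2KO than in J2WT. Hoxd13 stood at 7.24, 7.5 and 7.63 CPM in J2KO against 0.872, 0.967 and 1.01 in J2WT, a log2 fold change of 2.96 (SE 0.16, adjusted p 2.77e-12). Hoxb7 went from 0.125, 0.516 and 0.504 CPM to 2.02, 2.11 and 2.32 (2.47, SE 0.32). Neither gene overlapped between groups. Hoxa7 (1.17), Hoxd9 (1.14), Hoxd8 (1.09) and Hoxb4 (1.05) were higher too.

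Among HoxC genes, all 9 were lower in every J2KO library than in any J2WT library, where 21.1% of all genes were, and the sum was 17.8 ± 1.54 against 31.1 ± 2.41 CPM. Hoxc11 (log2 fold change -1.67, SE 0.29), Hoxc10 (-1.31, SE 0.21) and Hoxc12 (-1.28, SE 0.14) were called, as were Hoxb13 (-1.17) and Hoxa3 (-1.02). In HoxD, 8 of 9 means were higher. The calls came to 6 higher and 5 lower of 15 tested, where 13.3% of all tested genes were called (6.82% higher, 6.52% lower). Of the 38 genes 20 means were higher and 14 lower, where 48.1% of all genes were higher, with J2KO libraries entirely above for 11 and below for 12, against 20.2% and 21.1%. Hoxa3 missed the fold threshold at -0.76 when both strand columns were summed.

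In EpiLCs 2 Hox genes were called higher in J2KO. Hoxa7 stood at 1.35, 1.52 and 1.55 CPM against 0.609, 0.368 and 0.319 in J2WT (log2 fold change 1.75, SE 0.32, adjusted p 2.86e-05), and Hoxd13 at 4.97, 6.56 and 6.47 against 2.07, 3.31 and 2.55 (1.19, SE 0.17, adjusted p 5.56e-07). Libraries did not overlap for either. They were the only Hox genes tested and both were called, where 8.8% of all tested genes were (6.07% higher, 2.73% lower). Without any 1 J2KO EpiLC library Hoxa7 came under the count minimum, which left 1 call. Of all 38, 23 means were higher and 13 lower, where 49.5% of all genes were higher, with libraries entirely above for 7 and below for 1, against 19.1% and 18.5%. The stage change differed from that of J2WT for Hoxd13 (-1.78, SE 0.27) and Hoxd8 (2.21, SE 0.75, adjusted p 0.0145), 2 of 9 tested, where 11.3% of all tested genes differed (6.15% up, 5.16% down), and without J2WT EpiLC replicate 3 1 call was left. Hoxb1 had 6 counts against 33 (ratio 0.182, interval 0.0625 to 0.441).

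**Figure D3:**
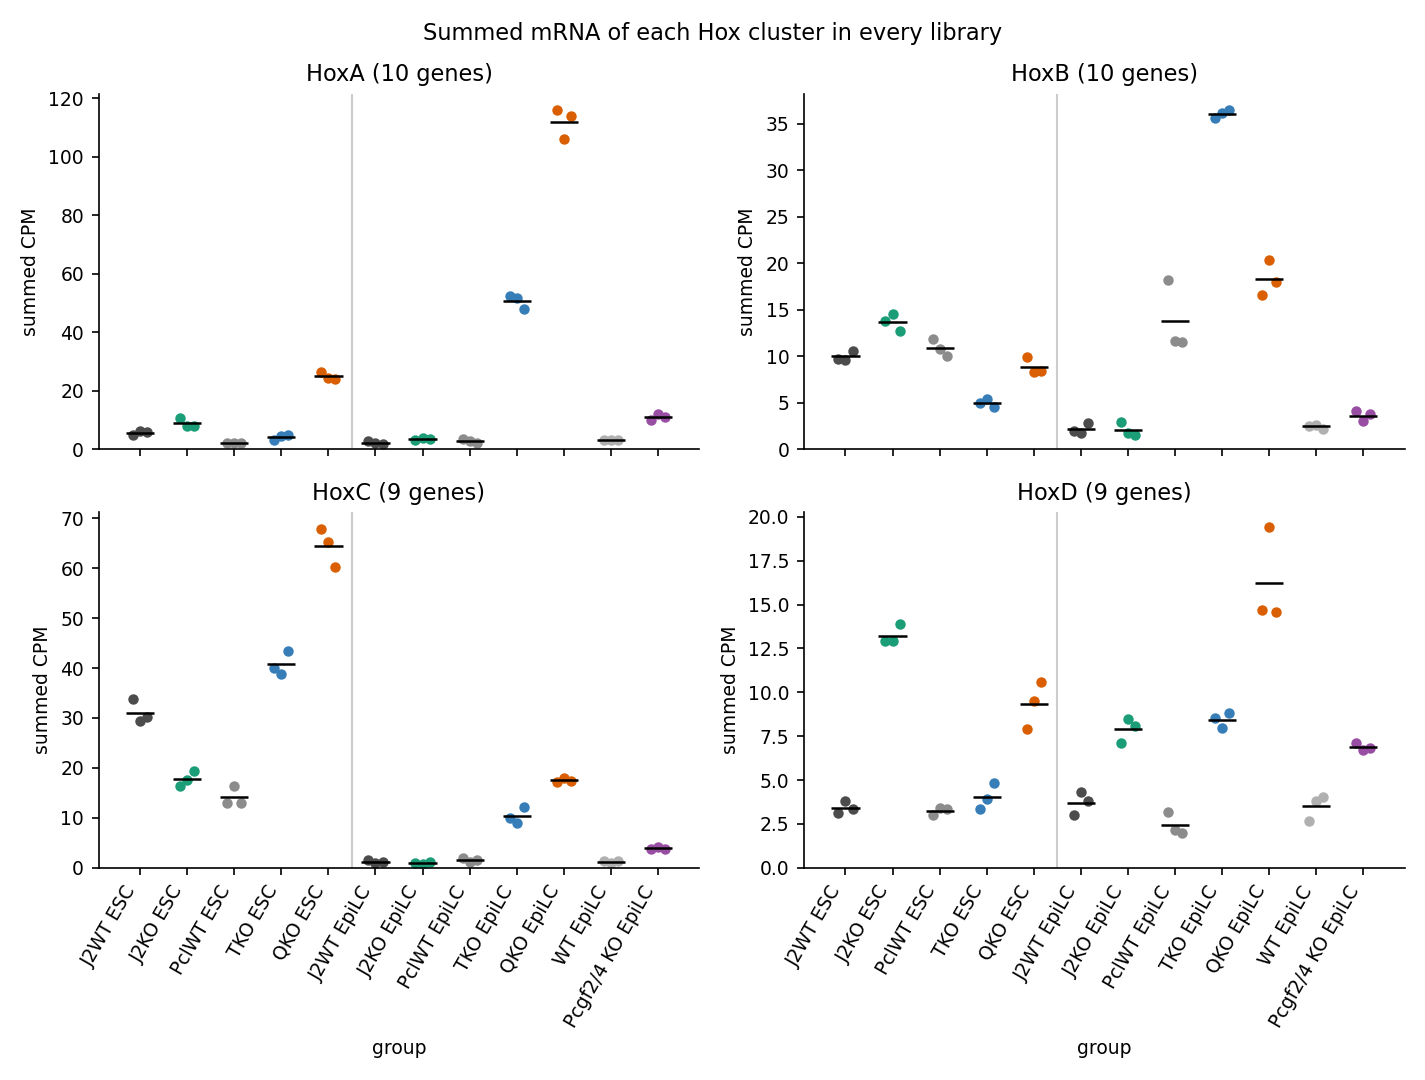
Summed level of each cluster (CPM) in every library of the 12 groups, with points for libraries and a line for the group mean of 3. HoxA reached 50.7 CPM in TKO EpiLCs and 112 in QKO EpiLCs, HoxB 36 and 18.3, while HoxC was highest in QKO ESCs at 64.5.

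The highest summed Hox levels in EpiLCs were those of TKO and QKO. TKO and QKO were each compared with the same PclWT libraries, so the comparisons share their controls and are given side by side. HoxA summed to 2.82 ± 0.718 CPM in PclWT EpiLCs, 50.7 ± 2.44 in TKO and 112 ± 5.08 in QKO. Hoxa10, which acts in the lumbar axis and the uterus, stood at 0, 0 and 0.2 CPM in PclWT, at 16.7, 18.8 and 16.2 in TKO and at 29.7, 29.4 and 29.2 in QKO. Its 2 counts in PclWT against 484 in TKO gave a ratio of 250 (interval 68.8 to 2070), and against 895 in QKO a ratio of 425 (117 to 3518). Hoxa9, a regulator of blood progenitors, had 2, 285 and 752 counts, ratios of 147 (40.4 to 1221) and 357 (98.6 to 2957).

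Hoxa5, which acts in the neck, thorax and lung, stood at 1.2, 0.614 and 0.4 CPM in PclWT EpiLCs, 8.99, 8.35 and 8.09 in TKO and 27.9, 21.7 and 25.1 in QKO. The 3 groups did not overlap. Its log2 fold change was 3.48 in TKO (SE 0.32, adjusted p 0.000647) and 5.04 in QKO (SE 0.3, adjusted p 0.00017). Hoxa3, of the pharyngeal arches, rose by 3.19 and 4.36, Hoxa7 by 2.87 and 4.15, and Hoxa4 by 2.34 and 3.21. All 10 HoxA means were higher in both mutants, with every library above PclWT for 9 genes in TKO and 10 in QKO, where 16.3% and 16.0% of all genes lay so. The unfiltered HoxA median was 3.03 and 4.41.

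The 250 bases before the transcription start of Hoxa5, Hoxa9, Hoxa10 and Hoxd13 are shown, chosen after their values were seen from the genes with a promoter in the table, because clusters of CG dinucleotides are where Polycomb complexes gather. They come from RefSeq (GRCm38.p6), run 5′ to 3′ on the gene's strand, and have CG dinucleotides in capitals. Hoxa5 (chr6:52204588-52204837, minus strand) holds 28 CG, Hoxa9 (chr6:52227371-52227620, minus) 3, the starts of Hoxa10 20 (chr6:52234940-52235189, minus) and 7 (chr6:52240855-52241104, minus), and Hoxd13 (chr2:74667975-74668224, plus) 31.
Hoxa5: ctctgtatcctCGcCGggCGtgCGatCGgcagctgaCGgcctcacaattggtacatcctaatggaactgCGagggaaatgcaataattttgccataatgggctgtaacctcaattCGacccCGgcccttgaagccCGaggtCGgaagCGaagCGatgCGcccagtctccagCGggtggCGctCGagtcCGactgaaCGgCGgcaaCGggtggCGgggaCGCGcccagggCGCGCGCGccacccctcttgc
Hoxa9: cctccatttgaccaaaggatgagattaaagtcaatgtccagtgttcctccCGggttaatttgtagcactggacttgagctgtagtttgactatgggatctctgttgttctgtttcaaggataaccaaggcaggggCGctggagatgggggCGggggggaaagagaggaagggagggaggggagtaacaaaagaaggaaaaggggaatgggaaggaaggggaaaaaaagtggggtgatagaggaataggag
Hoxa10 (lower start coordinate): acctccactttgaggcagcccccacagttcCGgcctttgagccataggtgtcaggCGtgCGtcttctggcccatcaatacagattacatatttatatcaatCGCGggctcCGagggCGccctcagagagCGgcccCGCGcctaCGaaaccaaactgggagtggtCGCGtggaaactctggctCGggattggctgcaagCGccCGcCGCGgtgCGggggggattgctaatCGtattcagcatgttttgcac
Hoxa10 (higher start coordinate): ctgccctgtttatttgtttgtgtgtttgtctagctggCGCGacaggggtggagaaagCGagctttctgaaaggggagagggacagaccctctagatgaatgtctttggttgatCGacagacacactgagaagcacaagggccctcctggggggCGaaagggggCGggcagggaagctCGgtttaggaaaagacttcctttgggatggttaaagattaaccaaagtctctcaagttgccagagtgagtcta
Hoxd13: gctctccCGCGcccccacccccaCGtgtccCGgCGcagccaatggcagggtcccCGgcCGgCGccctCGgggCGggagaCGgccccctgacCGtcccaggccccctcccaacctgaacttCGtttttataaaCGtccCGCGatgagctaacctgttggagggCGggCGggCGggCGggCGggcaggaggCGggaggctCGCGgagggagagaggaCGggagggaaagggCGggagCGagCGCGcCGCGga

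The table held such promoters for 22 of the 38 genes, 24 in all, and none for 16. Their median CG count was 12.5, with a range of 2 to 35, against 6 over 32851 promoters, and 21 of the 24 reached that median. The Hoxa9 window lies inside the annotated gene (chr6:52223100-52231089), before an inner start. So does the Hoxa10 window of the lower start coordinate, inside Hoxa10 (chr6:52231197-52240854). The part of CG content in the Hox levels was not tested.

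HoxB set the mutants apart. Hoxb1 stood at 3.5, 1.94 and 1.6 CPM in PclWT EpiLCs, at 8.72, 8.66 and 9.22 in TKO and at 1.01, 0.905 and 0.855 in QKO. TKO lay above PclWT (log2 fold change 1.88, SE 0.28, adjusted p 0.00353) and QKO below it (-1.36, SE 0.38, adjusted p 0.032), with no overlap in either case. The QKO call was lost when any 1 QKO EpiLC library was left out (adjusted p 0.0906, 0.0996 and 0.112). Hoxb4, known from blood stem cells, stood at 1.75, 2.05 and 1.6 CPM in PclWT, 7.48, 6.49 and 5.53 in TKO (1.82, SE 0.21) and 1.42, 2.26 and 2.57 in QKO (0.19, adjusted p 0.653).

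Hoxb9, of the rib-bearing trunk, rose in both (1.72, SE 0.18 in TKO and 1.96, SE 0.2 in QKO). Hoxb13, the gene nearest the tail in HoxB, was lower in both: PclWT stood at 7.33, 3.99 and 3.6 CPM, TKO at 1.25, 1.24 and 1.84 (-1.85, SE 0.37) and QKO at 1.93, 1.81 and 2.05 (-1.39, SE 0.33). The Hoxb13 calls rested on few libraries. Hoxb13 in TKO had adjusted p 0.0554 without TKO EpiLC replicate 1 and 0.052 without replicate 2, and in QKO it was lost without any of the QKO EpiLC libraries and at -0.99 without PclWT EpiLC replicate 1.

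The remaining HoxB genes were too low in PclWT for the test. In TKO EpiLCs Hoxb2 had 61 counts against 5 (ratio 12.6, interval 5.11 to 40.2), Hoxb5 had 60 against 4 (15.5, 5.75 to 58.7) and Hoxb8 had 65 against 7 (9.59, 4.4 to 24.8). In QKO the same genes had 13, 8 and 22 counts. Hoxb6 had 16 counts in TKO, 1 in QKO and 0 in PclWT, at least 5.51-fold higher in TKO. Reads of Hoxb2 and Hoxb3 are uncertain, since an antisense gene overlaps them and the kit does not mark strand: Hoxb2 had 94 counts over the 36 libraries, and 493 when the columns counted by strand were added, and Hoxb3 had 58 and 300.

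**Figure D4:**
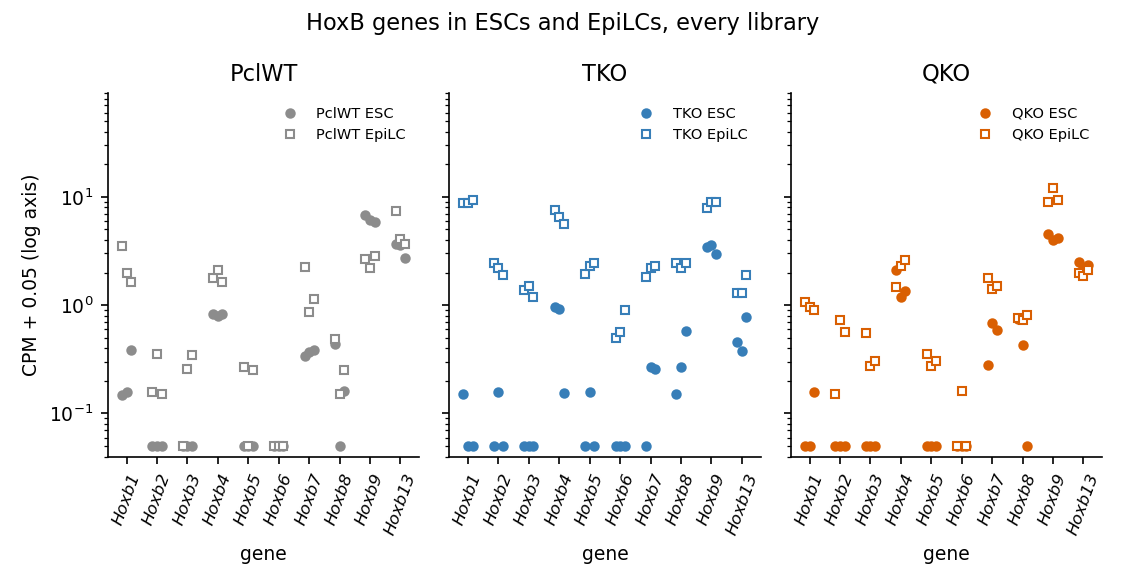
Level of each of the 10 HoxB genes in every library of PclWT, TKO and QKO (CPM plus 0.05, log axis), with filled circles for ESCs and open squares for EpiLCs. Hoxb1 in EpiLCs stood at 8.72, 8.66 and 9.22 CPM in TKO and at 1.01, 0.905 and 0.855 in QKO.

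The promoter of Hoxb1 is shown for the paired PBX and HOX motif TGATNNAT, in capitals, through which the gene is known to sustain its own expression. It lies at chr11:96365508-96365757 (GRCm38.p6, plus strand, RefSeq) and holds 7 CG dinucleotides and 1 such match.
Hoxb1: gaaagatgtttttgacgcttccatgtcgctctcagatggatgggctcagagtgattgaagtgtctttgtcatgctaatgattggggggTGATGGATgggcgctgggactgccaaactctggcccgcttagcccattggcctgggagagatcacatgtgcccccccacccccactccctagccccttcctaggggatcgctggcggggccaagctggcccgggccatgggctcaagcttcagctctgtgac
Both strands were searched. TGATNNAT was found in 4 of the 24 Hox promoters (Hoxa2, Hoxb1, Hoxb8 and 1 start of Hoxd11) and in 7.68% of all promoters. TTTATG, the core bound by CDX factors, was in 5 of 24 (Hoxa7, Hoxb8, Hoxd3, Hoxd4 and the other start of Hoxd11) and in 10.8% of all, with 0 overlaps between the motifs. A match describes letters in this window and does not show binding, which was not tested.

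In HoxC and HoxD both mutants were higher in EpiLCs. Hoxc4 stood at 1.09, 0.716 and 1.1 CPM in PclWT, 5.43, 6.18 and 7.52 in TKO (log2 fold change 2.65, SE 0.25) and 7.19, 8.03 and 8.04 in QKO (2.95, SE 0.22). Hoxd13 stood at 0.766, 0.512 and 0.4 CPM, then 4.54, 4.33 and 5.82 (3.06, SE 0.29) and 9.22, 9.61 and 7.52 (3.92, SE 0.26). Mutant libraries lay above PclWT for both genes in both lines. Hoxc13 in QKO rose by 3.19 (SE 0.26) and Hoxd8 by 2.03 (SE 0.36), while Hoxc12 remained near nothing, with 0 counts in PclWT, 1 in TKO and 9 in QKO.

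Counted over the clusters, TKO EpiLCs had 11 Hox genes called higher and 1 lower of 13 tested, where 14.1% of all tested genes were called (6.92% higher, 7.14% lower). QKO EpiLCs had 11 higher and 2 lower of 14, where 13.6% were (6.25% and 7.38%). Over all 38 genes the TKO mean was higher for 36 and lower for 1, where 47.6% of all genes were higher, with libraries entirely above for 27 and below for 1, against 16.3% and 16.4%. The QKO mean was higher for 35 and lower for 2, where 46.9% were higher, with 26 entirely above and 2 below, against 16.0% in each direction. Hoxd3 had no count in TKO or PclWT EpiLCs. The unfiltered medians were 2.79 and 3.21, and -0.01 and -0.07 for all genes. Without PclWT EpiLC replicate 1 the calls came to 13 and 11, with 12 and 11 of the genes shared, and without QKO EpiLC replicate 2 the QKO calls came to 11.

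**Figure D5:**
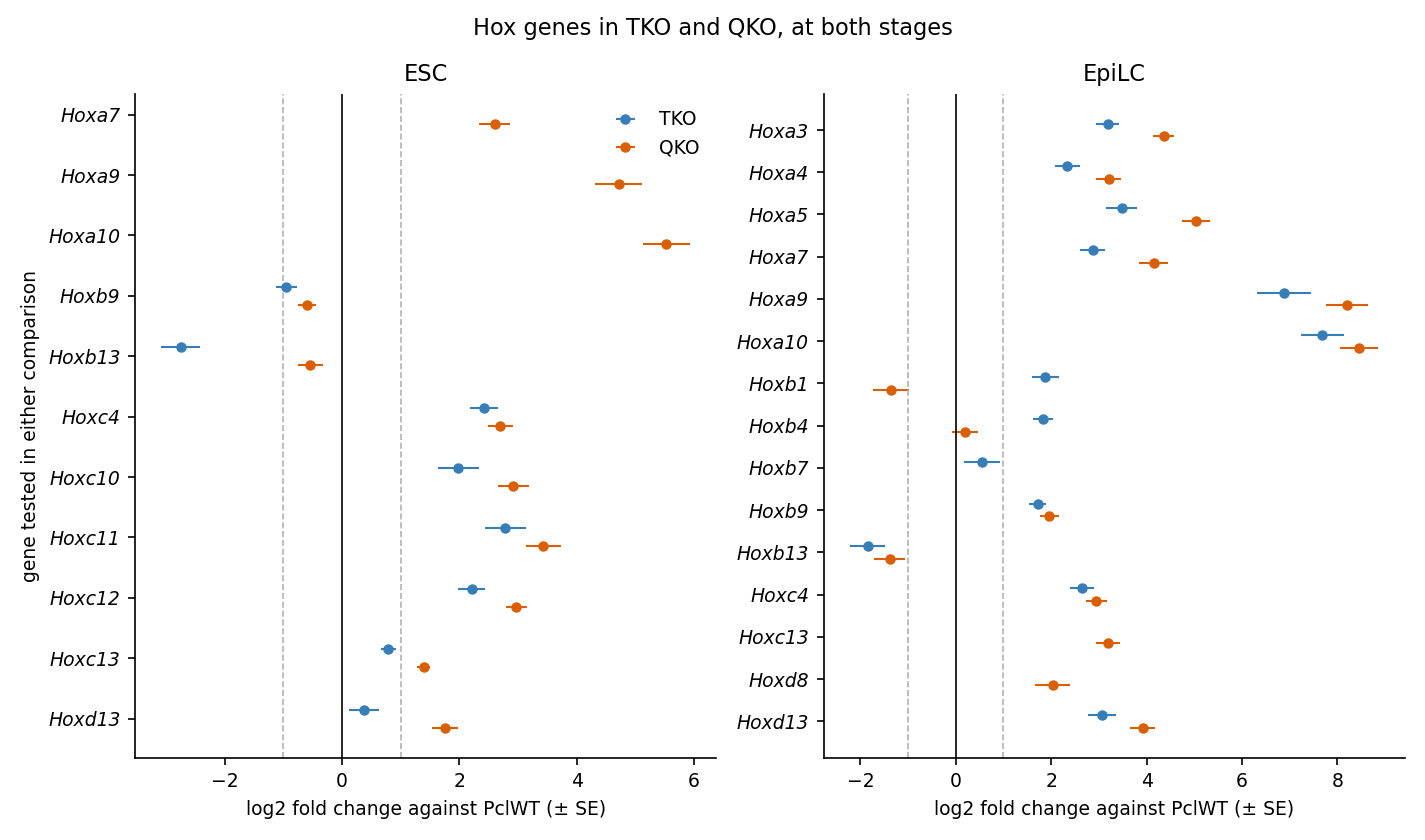
Log2 fold change against PclWT with its SE for each tested Hox gene, in TKO and in QKO and at each stage, with dashed lines at 1 and -1. Both share the PclWT libraries. In EpiLCs Hoxa10 and Hoxa9 lie farthest right (7.68 and 6.88 in TKO, 8.46 and 8.20 in QKO, against 2 PclWT counts each), and Hoxb1 lies at 1.88 in TKO and -1.36 in QKO.

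In ESCs the genes that differed in both mutants lay mainly in HoxC. HoxC summed to 14.1 ± 1.88 CPM in PclWT, 40.7 ± 2.37 in TKO and 64.5 ± 3.85 in QKO. All 9 of its genes lay above PclWT in every library of either mutant, where 19.1% of all genes did in TKO and 19.7% in QKO. Hoxc12 stood at 1.26, 1.82 and 2.12 CPM in PclWT, 7.16, 7.17 and 10.3 in TKO (log2 fold change 2.21, SE 0.23) and 14.1, 15 and 12.2 in QKO (2.97, SE 0.18). Hoxc11 rose by 2.78 and 3.43, Hoxc4 by 2.42 and 2.7, and Hoxc10 by 1.98 and 2.92. Hoxc13 reached 18.8, 15.4 and 18.1 CPM in TKO, a difference of 0.79 that missed the fold threshold, and 27.8, 26.3 and 25 in QKO (1.39, SE 0.11).

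The middle HoxC genes were low everywhere, and most were too low to test. Hoxc9, of the thoracic trunk, stood at 0.097, 0.214 and 0.223 CPM in PclWT ESCs, 1.41, 1.63 and 1.05 in TKO and 3.01, 2.54 and 3.04 in QKO. Hoxc8 stood at 0, 0.107 and 0 CPM, then 1.01, 0.543 and 1.15, and then 1.62, 1.65 and 1.3. Neither overlapped between PclWT and a mutant. Hoxc6 had 1 count in PclWT ESCs, 12 in TKO and 45 in QKO, and Hoxc5 had 2, 10 and 17. In EpiLCs Hoxc5, Hoxc6 and Hoxc8 together summed to 0.0729 CPM in PclWT, 1.4 in TKO and 2.04 in QKO, against 0.139, 1.67 and 3.96 in ESCs.

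HoxA in ESCs differed between the mutants. Hoxa10 stood at 0, 0.535 and 0 CPM in PclWT, at 0.101, 0.652 and 0.733 in TKO and at 8.8, 8.77 and 8.91 in QKO, a log2 fold change of 5.53 over PclWT (SE 0.4, adjusted p 2.09e-09). TKO overlapped PclWT and QKO did not. Hoxa9 in QKO rose by 4.72 (SE 0.4), Hoxa7 by 2.60 (SE 0.26) and Hoxd13 by 1.76 (SE 0.22). Hoxb13 in TKO ESCs was lower, at 0.403, 0.326 and 0.733 CPM against 3.59, 3.53 and 2.67 (-2.75, SE 0.33). TKO ESCs had 4 higher and 1 lower of 8 tested, where 13.7% of all tested genes were called (6.5% higher, 7.25% lower). QKO ESCs had 9 called of 11, all higher, where 13.8% were (5.76% and 8.03%). Of the 38 genes 25 TKO means were higher and 10 lower, where 48.0% of all genes were higher, with 13 genes entirely above and 4 below (19.1% and 19.8% of all genes). In QKO 28 means were higher and 6 lower, where 47.9% were higher, with 22 entirely above and 3 below (19.7% and 20.3%). The medians were 0.89 and 2.37.

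QKO, which lacks JARID2 as well as the Polycomb-like proteins, was also compared directly with TKO. Line and loss of JARID2 cannot be told apart in this comparison. In ESCs Hoxa10 (log2 fold change 4.14, SE 0.29), Hoxa9 (3.07, SE 0.26), Hoxa7 (1.89, SE 0.22), Hoxd13 (1.38, SE 0.21) and Hoxc9 (1.07, SE 0.26) were higher. These 5 came from 11 tested, where 4.52% of all tested genes were called (1.4% higher, 3.13% lower). Over the 38 genes 30 means were higher and 4 lower, where 49.9% of all genes were higher, and libraries lay entirely above for 22 and entirely below for 0, where 14.5% and 14.2% of all genes did.

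In EpiLCs the clusters parted. Hoxa5 (1.51, SE 0.11), Hoxa7 (1.26, SE 0.19), Hoxa9 (1.25, SE 0.12), Hoxa3 (1.14, SE 0.13), Hoxd8 (1.36, SE 0.27) and Hoxc13 (1.14, SE 0.26) were higher in QKO. Hoxb1 was lower by -3.28 (SE 0.21, adjusted p 5.4e-11) and Hoxb4 by -1.68 (SE 0.22, adjusted p 1.91e-06). HoxB from Hoxb1 to Hoxb8 lay lower in every QKO library than in any TKO library, 8 of its 10 genes, where 14.8% of all genes did, and the unfiltered HoxB median was -1.83 against 1.21 for HoxA. Hoxb9 (0.19, adjusted p 0.282) and Hoxb13 (0.43, adjusted p 0.214) were not called. The 8 calls came from 15 tested, where 4.84% of all tested genes were called (1.46% higher, 3.38% lower). Of all 38, 29 means were higher and 9 lower, where 49.1% of all genes were higher, with 18 entirely above, against 14.7%.

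From ESC to EpiLC, both mutants gained HoxA RNA and lost HoxC RNA. PclWT also gained Hoxa3, Hoxa4 and Hoxa5 RNA, to 19, 16 and 21 counts. In TKO, HoxA went from 4.17 ± 0.912 to 50.7 ± 2.44 CPM and HoxB from 4.96 ± 0.464 to 36 ± 0.428. Hoxb1 had 1 count in TKO ESCs and 247 in EpiLCs (ratio 253, interval 45.0 to 10036), Hoxb2 had 1 and 61 (62.5, 10.8 to 2509), and Hoxb3 had 0 and 37, at least 12.6-fold higher. Hoxa10 rose by 5.15 (SE 0.25), Hoxa3 by 4.86 (SE 0.3), Hoxa5 by 4.03 (SE 0.24), Hoxa9 by 3.87 (SE 0.27) and Hoxb4 by 3.41 (SE 0.32). All 10 HoxB genes had every EpiLC library above every ESC library, where 22.1% of all genes did. Hoxc12 fell from 235 counts to 1 (ratio 0.00436, interval 0.00011 to 0.0245) and Hoxc11 from 94 to 2, while Hoxc4 stood at 5.24, 5.97 and 6.81 CPM and then 5.43, 6.18 and 7.52 (0.10, adjusted p 0.615).

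QKO started higher in ESCs and rose less at the 5-prime end of HoxA: Hoxa9 by 2.06 (SE 0.11) and Hoxa10 by 1.74 (SE 0.09), against 5.01 for Hoxa3 (SE 0.27), 4.70 for Hoxa4 (SE 0.41) and 4.37 for Hoxa5 (SE 0.18). Hoxc12 (-5.46, SE 0.26), Hoxc11 (-3.23), Hoxc13 (-2.71) and Hoxc10 (-2.43) fell. Hoxb1 had 1 and 28 counts (ratio 23.7, interval 3.91 to 968). TKO had 9 called higher and 3 lower of 13, where 22.6% of all tested genes were called (14.0% higher, 8.6% lower). QKO had 7 higher and 4 lower of 18, where 19.2% were (12.2% and 7.01%). Over the 38 genes 27 means were higher and 10 lower in each, where 49.7% and 50.7% of all genes were higher. EpiLC libraries lay entirely above for 23 genes in TKO and 18 in QKO (22.1% and 22.3% of all genes) and below for 6 and 8 (21.9% and 21.3%). Unfiltered medians were 1.45 and 0.92 over the 38 genes, against 0.04 and 0.01 for all genes.

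Set against the change in PclWT, the change in TKO was higher by 2.68 for Hoxd13 (SE 0.36), 2.66 for Hoxb9 (SE 0.21), 2.15 for Hoxa7 (SE 0.43), 2.14 for Hoxb4 (SE 0.57), 5.25 for Hoxa9 (SE 1.48) and 6.29 for Hoxa10 (SE 1.78). These 6 were called of 13 tested, where 7.55% of all tested genes were called (4.39% up, 3.16% down). The count fell to 2, Hoxd13 and Hoxb9, without TKO EpiLC replicate 1 and to 3 without PclWT ESC replicate 2. Hoxa9 and Hoxa10 rest on a few PclWT counts: without PclWT ESC replicate 3 Hoxa9 had adjusted p 0.436, and without PclWT ESC replicate 2 Hoxa10 had adjusted p 0.918. In QKO, Hoxb9 (2.55, SE 0.24), Hoxd13 (2.15, SE 0.36) and Hoxc13 (1.79, SE 0.3) were called of 12 tested, where 7.25% were (4.76% and 2.49%), and 5 were without PclWT EpiLC replicate 1. Hoxa3 and Hoxa5 were tested in both contrasts and not called. Hoxa3 differed by 2.3 in TKO (adjusted p 0.19) and 2.48 in QKO (adjusted p 0.158). Hoxa5 differed by 0.82 in TKO (adjusted p 0.751) and 1.19 in QKO (adjusted p 0.607). Hoxb9 fell in PclWT and rose in both mutants, from 3.43, 3.58 and 2.93 CPM to 7.92, 8.97 and 8.94 in TKO and from 4.52, 3.94 and 4.13 to 8.92, 12.1 and 9.32 in QKO.

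The line without PCGF2 and PCGF4 was compared with WT in EpiLCs only. HoxA summed to 11.1 ± 0.954 CPM in Pcgf2/4 KO EpiLCs and 3.28 ± 0.045 in WT. Hoxa5 stood at 3.4, 3.68 and 3.46 CPM against 1.2, 1.17 and 0.968 (log2 fold change 1.66, SE 0.25, adjusted p 1.49e-06), and Hoxc13 at 2.27, 3.1 and 2.4 against 0.924, 0.782 and 1.06 (1.49, SE 0.29, adjusted p 5.86e-05). Neither overlapped. Hoxd13 stood at 4.73, 5.24 and 4.71 CPM against 1.57, 3.03 and 3.29, and its 0.91 missed the fold threshold.

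Many of the others were too low to test. Hoxa10 had 62 counts in Pcgf2/4 KO and 6 in WT (ratio 10.4, interval 4.5 to 29.3), Hoxa9 had 36 and 2 (18, 4.65 to 155) and Hoxc4 had 28 and 4 (7.02, 2.46 to 27.5). Hoxb1 went the other way, with 1 count against 16 (0.0627, interval 0.00149 to 0.403). 2 of 3 tested Hox genes were called, both higher, where 5.82% of all tested genes were (1.91% higher, 3.91% lower). Over the 38 genes 27 means were higher and 7 lower, where 51.0% of all genes were higher. Libraries lay entirely above for 17 and below for 2, against 15.7% and 16.5%, and the median was 1.56.

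By paralog number, the low numbers 1 to 4 (11 genes) summed to 7.64 ± 0.865 CPM in PclWT EpiLCs, 36.7 ± 0.578 in TKO and 33.8 ± 1.57 in QKO. Numbers 5 to 8 (11 genes) summed to 3.89 ± 1.84, 21.9 ± 1.05 and 41.9 ± 3.69, and numbers 9 to 13 (16 genes) to 9.01 ± 2.91, 46.9 ± 1.46 and 88.4 ± 2.92. For the low numbers TKO libraries lay between 36.1 and 37.1 CPM and QKO libraries between 32.1 and 35.2, without overlap, and their make-up differed: HoxB gave 18.8 CPM in TKO and 3.77 in QKO, and HoxA 10.4 and 20.9. In J2WT ESCs most Hox RNA came from numbers 9 to 13, 36.1 ± 0.857 CPM against 8.37 ± 1.51 for 1 to 4. HoxD had the lowest cluster sum in TKO and QKO EpiLCs, though its QKO libraries (14.6 to 19.4 CPM) overlapped those of HoxC and HoxB. Hoxd3, Hoxd4, Hoxd10, Hoxd11 and Hoxd12 reached no more than 0.597 CPM in any library.

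The genes around the clusters and the partners of Hox proteins were taken from lists. Of 34 flanking genes, 28 were tested in each of the TKO and QKO EpiLC comparisons and those called were lower: Calcoco2 (-2.31), Snf8 (-1.30) and Nfe2l3 (-1.23) in TKO, 3 in all, and Copz2 (-1.70) and Nfe2l3 (-1.22) in QKO, 2 in all, where 7.14% and 7.38% of all tested genes were called lower. Of 9 TALE cofactors 8 were tested in each; 5 were called in TKO EpiLCs and 4 in QKO, all higher, where 6.92% and 6.25% of all tested genes were called higher. Meis1, a cofactor of HOXA9, rose by 4.15 (SE 0.51) in TKO and 5.06 (SE 0.5) in QKO, and Meis2 by 3.09 and 4.38. In Pcgf2/4 KO 1 of 7 tested was called, Meis2 at 1.89, where 1.91% of all tested genes were called higher.

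Of 21 upstream factors, 10 were tested in TKO EpiLCs and 4 were called, all higher (6.92% of all tested genes were called higher and 7.14% lower), among them Cdx2 (2.51, SE 0.32), which drives trunk Hox genes, and Cyp26a1 (1.66, SE 0.32), whose enzyme degrades retinoic acid. In QKO EpiLCs 1 of 7 tested was called, Cdx1 at 1.28 (SE 0.2), where 6.25% were called higher and 7.38% lower. Between the mutants 1 was higher and 3 lower of 10 tested, where 1.46% and 3.38% were: Cyp26a1 (-3) and Cdx2 (-2.22) were lower in QKO, and Cdx1 was higher (1.12). The part of these factors in the Hox levels was not tested. Of 17 cluster noncoding RNAs only Halr1, a long RNA beside HoxA, was tested in all 4 mutant comparisons with PclWT; it rose by 2.53 and 2.54 in TKO ESCs and EpiLCs and by 1.43 and 1.88 in QKO.

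Some markers of other states also differed between PclWT, TKO and QKO EpiLCs, not all in the order of the Hox sums. Of 6 primitive endoderm markers all 6 were tested and called higher in TKO, and 4 of 5 tested were in QKO, where 6.92% and 6.25% of all tested genes were called higher. Their summed levels were 19.2 CPM in PclWT (range 15.4 to 21.4), 108 in TKO (103 to 114) and 52.5 in QKO (51.0 to 53.6), and no marker was at 0. The 7 naive markers summed to 381 CPM in PclWT (343 to 456), 529 in TKO (504 to 556) and 1143 in QKO (1107 to 1202), with 3 called higher in TKO and 5 in QKO and Klf2 called lower in both. The 6 formative markers summed to 1400 CPM (1382 to 1435), 2704 (2631 to 2802) and 3569 (3340 to 3758), mainly through Dnmt3a, a DNA methyltransferase, at 460, 1490 and 2614 CPM. Its relative Dnmt3b was called lower in QKO, at 214 CPM against 430 (log2 fold change -1.04). Pou3f1 in QKO stood at 63.0 CPM against 122 (-0.99, adjusted p 0.0201), short of the fold threshold. Otx2 stood at 3.39 CPM in PclWT, 13.2 in TKO and 59.1 in QKO, called higher in both mutants (1.92 and 4.08). Fgf5 stood at 0.896, 3.99 and 1.71 CPM, called higher in TKO (2.08) and not tested in QKO. J2WT EpiLCs held 117 CPM of Otx2 and 58.3 of Fgf5.

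The 5 neuroectoderm markers summed to 13.7 CPM in PclWT EpiLCs (12.3 to 14.8), 101 in TKO (99.6 to 104) and 53.6 in QKO (49.4 to 58.7), most of it in the mutants from Sox1 (3.12, 87.3 and 48.6 CPM). Olig2 went the other way, from 7.07 CPM to 0.159 in TKO and 0.262 in QKO (-5.53 and -4.72, both called), and Neurod1 was called in TKO (2.29) but not in QKO (-0.03). The 8 primitive streak and mesoderm markers stood at 12.5, 13.6 and 13.7 CPM and the 8 fibroblast markers at 13.9, 11.2 and 9.68.

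In Pcgf2/4 KO the naive sum was 586 CPM against 282 in WT and the primitive endoderm sum 26.5 against 9.72. The neuroectoderm sum was 13.5 CPM against 34.5 and the fibroblast sum 4.09 against 19.8. Among the formative markers Fgf5 was called lower (19.8 against 44.0 CPM, -1.14), where 3.91% of all tested genes were. Pou3f1 (232 against 467 CPM, -0.99) and Dnmt3b (1132 against 2180, -0.93) were lower but short of the fold threshold. Otx2 (0.28), Pou5f1 (0.12) and Dnmt3a (0.05) were slightly higher. In J2KO EpiLCs the primitive endoderm sum was 7.89 CPM against 22.1 in J2WT, with Gata6 (-3.23), Pdgfra (-2.21) and Dab2 (-1.68) called lower and Gata4 higher (1.06). Sox1 was also called lower there (-2.0). The formative sum was 5436 CPM against 4524, with Otx2 (1.55), Dnmt3a (1.18) and Fgf5 (1.02) called higher, and the naive sum 420 against 253, with 4 of 7 called higher. In this J2KO comparison 6.07% of all tested genes were called higher and 2.73% lower. The part of these markers in the Hox results was not tested, and in these bulk libraries more cells that express a gene and more RNA per cell cannot be told apart.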

How the data were processed

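Poly(A)-selected RNA from 36 libraries was sequenced, and the deposited files hold raw read counts per gene that the authors made from reads aligned to the mouse genome (GRCm38, mm10 in the submitters' processing notes). Each file gives an unstranded count and a count for each strand; the unstranded column was used, and reads in no single gene were left out of library sizes. Library totals ran from 6784578 to 18026492 counts, and ratio intervals (95%) and the floor of 3 counts over a group cover counting error only. Symbols were found for 55141 of 55401 genes.

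Counts were scaled by TMM and tested in edgeR 4.0.16 (R 4.3.3, quasi-likelihood), in 14 comparisons of 2 groups and 4 comparisons of stage effects, each fitted on the libraries of its groups over every gene whose normalized counts averaged 15 or more. P-values were adjusted by the Benjamini-Hochberg method over all tested genes. Calls were set at an adjusted p below 0.05 with a log2 change beyond 1 in either direction. The scripts were tested on simulated data. By the rule for named genes, called Hox genes are given, at most 5 a direction by size, with Hoxc5, Hoxc6, Hoxc8, Hoxc9, Hoxc12 and Hoxc13 always given, and called genes of other lists at most 3 a direction. Some genes that the lists' counts include are not reported here by name. Further Hox genes, tested or not, were named after their values were seen. The members, gene lists and tests were chosen with earlier results of these data known.

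Alternatives were DESeq2 1.42.0, RLE normalization, a minimum of 5, no minimum, a replicate block, leaving out each library and, chosen after seeing the data, the strand columns summed. Libraries were taken as paired where same-numbered libraries deviated together with every correlation over 0.1. This held for PclWT EpiLCs and ESCs (0.458, 0.248 and 0.209), where the blocked fit called the same number of Hox genes (2).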

Additional observations from a re-analysis of the deposited data

Results flagged for a closer look

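In 15 cases the change of a Hox gene from ESC to EpiLC differed between lines by the test of that difference itself (edgeR, log2 scale). Between the wild types, the change in PclWT minus that in J2WT was 5.22 for Hoxc4, 3.91 for Hoxb13, 1.62 for Hoxb9 and -2.95 for Hoxd13, and line, set and depth cannot be told apart there. In J2KO minus J2WT it was 2.21 for Hoxd8 and -1.78 for Hoxd13. In TKO minus PclWT it was 6.29 for Hoxa10 (SE 1.78), 5.25 for Hoxa9 (SE 1.48), 2.68 for Hoxd13, 2.66 for Hoxb9, 2.15 for Hoxa7 and 2.14 for Hoxb4. Hoxa10 and Hoxa9 had 2 counts each in PclWT EpiLCs and 5 and 6 in PclWT ESCs. Each lost its call when a PclWT ESC library was left out. In QKO minus PclWT it was 2.55 for Hoxb9, 2.15 for Hoxd13 and 1.79 for Hoxc13. The comparisons for TKO and QKO share the PclWT libraries.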

How the results depend on the processing

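No value of a named Hox gene changed sign in any of the alternatives run. Of 126 gene values, DESeq2, the replicate block and the summed strand columns each took 1 below its threshold, and RLE normalization and the other count minimums took 0. Leaving out 1 library took 39 of 814 below it. The number of calls followed the count minimum, since fewer or more genes were tested. With a minimum of 5 the calls from ESC to EpiLC came to 17 in J2WT, 7 in PclWT, 16 in J2KO and 25 in TKO, and those between lines to 15 for QKO ESCs, 11 for QKO against TKO in ESCs, 17 in EpiLCs, 8 for Pcgf2/4 KO and 9 for PclWT minus J2WT. Without a minimum they came to 22, 11, 20, 27 and, in QKO, 20 from ESC to EpiLC, to 18 and 4 for J2KO in ESCs and EpiLCs, 10 and 22 for TKO, 19 and 24 for QKO, 11 and 19 for QKO against TKO, 12 for Pcgf2/4 KO, 9 for PclWT minus J2WT and 6 for QKO minus PclWT. DESeq2 gave 1 for J2KO minus J2WT and 5 for QKO minus PclWT.

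Leaving out 1 library gave 6 to 11 calls from ESC to EpiLC in J2WT, 2 to 2 in PclWT, 8 to 9 in J2KO, 11 to 13 in TKO and 11 to 11 in QKO. Between lines it gave 8 to 11 and 1 to 2 for J2KO in ESCs and EpiLCs, 4 to 6 and 10 to 13 for TKO, 9 to 10 and 11 to 13 for QKO, 4 to 6 and 8 to 9 for QKO against TKO, and 2 to 3 for Pcgf2/4 KO. For the differences in change it gave 3 to 5 (PclWT minus J2WT), 1 to 3 (J2KO minus J2WT), 2 to 8 (TKO minus PclWT) and 3 to 5 (QKO minus PclWT). Counts moved by more than 1.5 times without J2WT ESC replicate 3 (6, from ESC to EpiLC), without any J2KO EpiLC library (1, J2KO in EpiLCs), without J2WT EpiLC replicate 3 (1, J2KO minus J2WT), without PclWT ESC replicate 2 or TKO EpiLC replicate 1 (3 and 2, TKO minus PclWT) and without PclWT EpiLC replicate 1 (5, QKO minus PclWT).

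With the replicate number as a block the calls were 10, 2, 9, 12 and 11 from ESC to EpiLC, as without it, and 3, 5 and 4 against 2, 6 and 3 for J2KO minus J2WT, TKO minus PclWT and QKO minus PclWT. Apart from PclWT the libraries shared only a number. Depth limits what low Hox genes can show: at the lowest depth a silent gene and one with a few counts could not be told apart.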
